A study of Mus musculus with 16 samples.

Results

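H19, Igf2, Kcnq1ot1, Igf2r and Airn are 5 imprinted mouse genes, and CTCF was followed at them on RNA and on DNA in female mouse embryonic stem (ES) cells. They were taken by their mm9 intervals and strands, 5 fixed intervals set beside the 42918 transcribed regions merged from the nuclear RNA lists of the study. H19 (chromosome 7, 149761437 to 149764051), Igf2 (149836670 to 149850000) and Kcnq1ot1 (150398060 to 150482454) are read from the minus strand of chromosome 7. Igf2r (chromosome 17, 12875272 to 12962530) is read from the minus strand, and Airn (chromosome 17, 12934177 to 13052000) from the plus strand, so that the first 28354 bp of Airn run against the first part of Igf2r.

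Day 3 cells had been kept for 3 days in suspension without LIF, the cytokine that holds mouse ES cells undifferentiated, and day 0 cells were adherent and with LIF. RNA bound to CTCF was sequenced after UV crosslinking and capture on anti-Flag beads (CLIP-seq; 2 libraries at day 3, 2 at day 0), nuclear RNA after removal of ribosomal RNA (RNA-seq; 1 library at day 3, 1 at day 0), and DNA bound to CTCF with a CTCF antibody (ChIP-seq; 1 library at day 3, 2 at day 0). The strain is given as CAST/Ei x 129/Sv/Jae for the CLIP and RNA libraries and as 129S1/CastEiJ x 129S1 for the ChIP libraries, so RNA and DNA binding come from differently named crosses. Input and no-UV libraries were not analysed here. Whether replicates came from different cultures is not stated, so each p-value reflects the spread among these libraries alone, and that spread may be technical. The stem cell identity was not checked, because no table of mm9 gene positions was used here.

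Imprinted genes are expressed from 1 parental chromosome, chosen by DNA methylation set in the germ line. At H19 and Igf2 the choice runs through CTCF itself: it binds the unmethylated maternal control region upstream of H19 and insulates Igf2 from shared enhancers. Kcnq1ot1 and Airn are long nuclear noncoding RNAs made from the paternal chromosome, which silence neighbouring genes. Airn silences Igf2r by running across its start.

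The starts of the 2 silencing RNAs and of Igf2r, which Airn runs across, are shown; none of them had a ChIP peak common to the 3 libraries within 10 kb, and neither had Igf2. The windows are RefSeq promoter windows of build GRCm38.p6, from 250 bases before to 50 after the start, and 4 of the 5 genes had one. Capitals mark CCAAT, the core letters bound by NF-Y, in Kcnq1ot1, and CCCTC, core letters of many CTCF sites, in Igf2r and Airn. The Kcnq1ot1 window is chr7:143296498-143296797 (minus), that of Igf2r chr17:12769657-12769956 (minus) and that of Airn chr17:12741061-12741360 (plus).
Kcnq1ot1: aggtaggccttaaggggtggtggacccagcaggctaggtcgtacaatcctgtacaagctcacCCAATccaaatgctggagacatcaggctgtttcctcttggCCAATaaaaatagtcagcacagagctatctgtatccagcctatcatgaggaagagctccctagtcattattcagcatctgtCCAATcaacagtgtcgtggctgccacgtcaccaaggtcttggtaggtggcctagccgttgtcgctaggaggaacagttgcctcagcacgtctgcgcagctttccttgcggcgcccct
Igf2r: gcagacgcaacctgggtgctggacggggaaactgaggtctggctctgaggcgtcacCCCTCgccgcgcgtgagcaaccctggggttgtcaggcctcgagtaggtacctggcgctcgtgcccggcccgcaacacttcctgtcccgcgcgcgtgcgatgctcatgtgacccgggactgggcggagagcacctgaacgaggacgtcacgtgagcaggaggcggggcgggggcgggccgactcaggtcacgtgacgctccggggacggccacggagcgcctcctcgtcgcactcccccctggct
Airn: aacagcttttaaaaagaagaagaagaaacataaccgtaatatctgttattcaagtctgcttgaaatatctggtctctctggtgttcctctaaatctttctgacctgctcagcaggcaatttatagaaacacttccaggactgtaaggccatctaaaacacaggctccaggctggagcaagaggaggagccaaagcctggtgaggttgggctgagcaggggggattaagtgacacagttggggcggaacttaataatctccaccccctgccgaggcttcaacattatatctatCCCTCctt
Kcnq1ot1 held CCAAT 3 times, all on its sense strand, and CCCTC not at all. Igf2r and Airn each held CCCTC 1 time and CCAAT 0 times, and CCAAT was marked only where CCCTC was absent. The 4 windows of Igf2, not printed, held CCCTC 1, 0, 8 and 6 times. Longer CTCF forms of 13 and 14 letters matched 0 times in every window of these genes. They were found in 0.724% and 0.0365% of all promoter windows. Over both strands, 37.4% of 32851 promoter windows held CCAAT and 66% held CCCTC, and overlapping matches were counted.

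On RNA, the 5 genes fell far apart. Per length, CTCF CLIP peaks were denser over Kcnq1ot1 than over Igf2r in 3 libraries and about equal in day 0 replicate 1, and Airn was below both in all 4. The short H19 was densest in replicate 1 of each day. Igf2 had none in any of the 4 libraries. A peak here is a stretch the authors called in 1 library and on 1 strand, and the lists hold no read counts, so coverage of a gene is given as peak bases per Mb of all peak bases in that library. List sizes were 106382 and 165695 peaks for the day 3 libraries and 114016 and 213181 for the day 0 libraries. The 2 replicate numbers differed in the same way on both days: the lowest peak score was 406 and 212 at day 3 and 409 and 221 at day 0, and the median peak width 47 and 36 bp at day 3 and 46 and 38 bp at day 0. Of the 5 genes, 4 had a sense-strand peak in both libraries of day 3 and the same 4 in both of day 0. Among all regions this held for 21% at day 3 and 21.8% at day 0, and among those of at least 10 kb for 67% and 68.1%.

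Kcnq1ot1 carried 116 and 72 sense-strand peaks in day 3 replicates 1 and 2, and 36 and 159 in day 0 replicates 1 and 2. This came to 1179 and 474 peak bases per Mb at day 3 and to 265 and 755 at day 0. Per kb of gene it was 65.8 and 38.2 peak bases at day 3, and 15.4 and 74.2 at day 0. The 2 libraries of each day lay farther apart than the day means did, and the groups overlapped. Among 10885 transcribed regions of at least 10 kb, only 67 and 524 were denser in peak bases at day 3, and 1408 and 204 at day 0. The best-scoring Kcnq1ot1 peak ranked at percentile 99.4 and 98.4 of its list at day 3 and at 93.2 and 97.6 at day 0, while the median peak of the gene ranked between 45.2 and 63.9 in the 4 libraries. The peaks lay mostly on the strand of Kcnq1ot1, with 188 sense and 2 antisense peaks at day 3 and 195 and 4 at day 0. Sense peaks were thus 98.9% and 98.0%. Of all peaks over regions transcribed from 1 strand, 98.3% lay on that strand. Kcnq1ot1 is not such a region: at day 0 a plus-strand row of 319953 bp at 7.995 FPKM, pooling 2 transcripts, ran across it.

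Igf2r, the receptor that clears IGF2, carried 13 and 31 sense peaks at day 3 and 28 and 37 at day 0. Per Mb these were 111 and 199 peak bases at day 3, and 266 and 157 at day 0, again overlapping. Airn had 2 and 5 peaks at day 3, against 5 and 12 at day 0. Per Mb Airn had 25.7 and 20.3 peak bases at day 3 and 51.7 and 50.2 at day 0, from these few peaks. How many other regions have days that lie apart like this was not counted. The limma adjusted p for Airn was 0.755, and no difference between the days is read from the gap. Per kb of gene Airn had 1.03 and 1.17 peak bases at day 3 and 2.16 and 3.54 at day 0, and Igf2r 6.01 and 15.5 at day 3 and 15.0 and 14.9 at day 0.

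H19, a short abundant noncoding RNA in embryonic tissue, had 4 and 2 peaks at day 3, against 2 and 1 at day 0, or 41.8 and 9.41 peak bases per Mb against 29.5 and 3.49. Replicate 1 was the higher library on both days. Being only 2615 bp long, H19 was dense per kb, with 75.3 and 24.5 peak bases at day 3 and 55.4 and 11.1 at day 0, and in replicate 1 of each day it stood above Kcnq1ot1. Of 19519 regions of at least 1 kb, 276 and 2331 were denser at day 3 and 513 and 5704 at day 0. Few peaks lie behind these values. Igf2, the fetal growth factor gene, had 0 peaks on either strand in any library. At least 1 peak was present in 7796 and 8530 of the 10885 long regions at day 3, and in 7875 and 8573 at day 0.

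**Figure D1:**
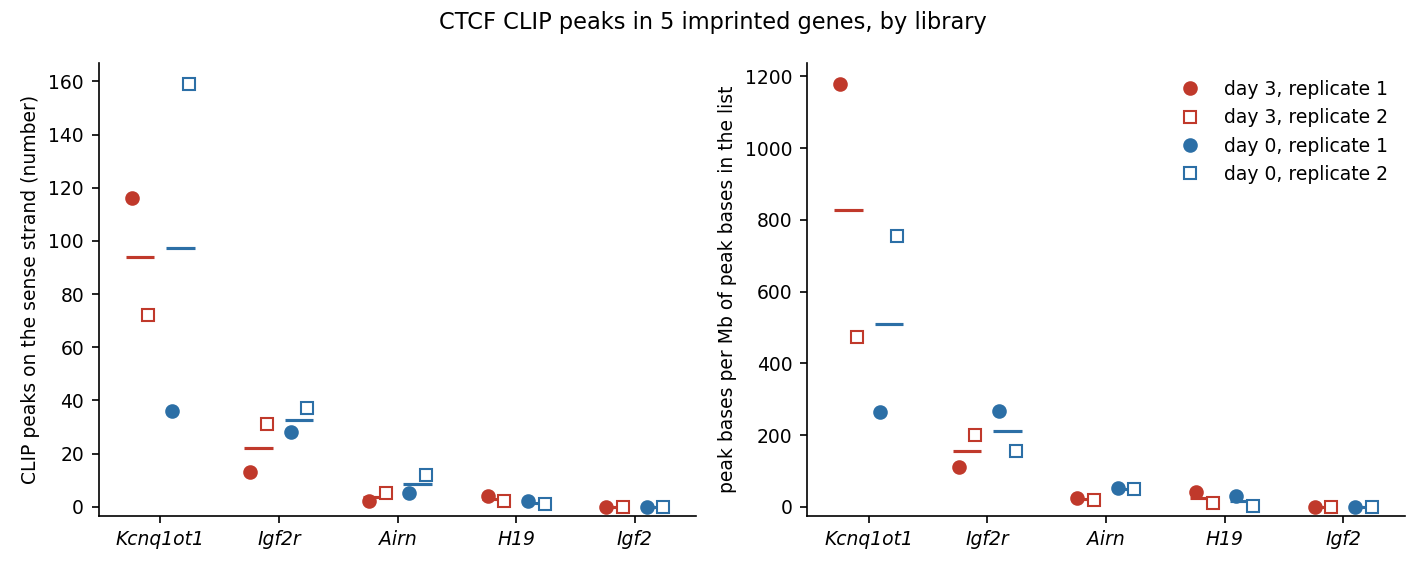
Sense-strand CLIP peaks per gene (left, number) and peak bases per Mb of the peak bases in the library (right), with day 3 in red left of day 0 in blue; filled circles are replicate 1, open squares replicate 2 and bars the mean of 2 libraries. Kcnq1ot1 reached 159 peaks in day 0 replicate 2 but 36 in day 0 replicate 1, and the days overlap for Kcnq1ot1, Igf2r and H19.

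The question put to the CLIP libraries was whether RNA binding differed between the days. Peak bases per Mb of 12329 rows, 12325 regions and 4 of the genes, were compared with limma on log2(value + 1). No row passed an adjusted p of 0.05 (0% called, 0 of the 4 genes), 1047 had an unadjusted p under 0.05 and the smallest adjusted p was 0.215. This fit also made no call on simulated data that held large differences, so its lack of calls says little about these libraries. A limma fit whose prior spread follows the mean level, chosen after seeing the data, called 0 rows here (smallest adjusted p = 0.663). It made calls on simulated data whose spread also followed the mean level, a setting that favours this fit. With a pseudocount of 0.1 in place of 1, limma called 359 rows (smallest adjusted p = 0.0453), none of them among the 4 genes.

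The log2 difference, day 3 minus day 0, was -1.12 ± 0.51 (SE) for Airn, with a limma adjusted p of 0.755. For Igf2r it was -0.46 ± 0.64 and for Kcnq1ot1 0.74 ± 0.88, with limma adjusted p of 0.974 and 0.955. H19 stood at 0.85 ± 1.35 (limma adjusted p = 0.984), and Igf2 was not tested. No direction can be given for Kcnq1ot1, H19 or Igf2r, and the Airn difference was not called. Kcnq1ot1 turned to -0.013 without day 0 replicate 1, and H19 to -0.17 without day 3 replicate 1 and to -0.53 without day 0 replicate 2. Igf2r came to -0.039 without day 3 replicate 1 and to -0.077 without day 0 replicate 1. With peaks scoring at or above the median of their list, Airn stood at -3.20 ± 1.64 (limma adjusted p = 0.868).

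Kcnq1ot1 had the largest share of recurrent peaks of the 5 genes. Merging peaks of the 4 libraries on 1 strand gave 270 sites in Kcnq1ot1, of which 68 (25.2%) were found in at least 2 libraries, against 11% of 510704 sites overall. Igf2r had 10 of 97 (10.3%), H19 1 of 8 and Airn 0 of 24. Kcnq1ot1 also had the most peaks of them in every library, and the part of that in its share was not tested. Kcnq1ot1 had 15 sites in 3 libraries and 4 in all 4. Igf2r had 2 sites in 3 libraries and none in all 4. The 4 Kcnq1ot1 sites lay at 150473956 to 150474051, 150463667 to 150463760, 150452530 to 150452642 and 150432966 to 150433080, which is 8.45, 18.7, 29.9 and 49.4 kb into the RNA.

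CLIP peaks ran along most of Kcnq1ot1 and stopped before its end. In the first 10 kb there were 20 and 23 peaks at day 3, against 9 and 25 at day 0. From 50 to 60 kb there were 15 and 4 at day 3, and 2 and 26 at day 0. From 70 to 80 kb there were 0 and 0 at day 3, and 1 and 2 at day 0, and beyond that none. Nuclear RNA declined over the same length. The mean over the first 10 kb was 17.7 FPKM at day 3 and 8.70 FPKM at day 0; from 60 to 70 kb it was 0.096 FPKM at day 3 and 0.54 FPKM at day 0. Day 3 replicate 1 still had 61.5 peak bases per kb in that stretch, while the other libraries had 3.1 at day 3 and 0 and 29.8 at day 0. Peaks within a listed RNA row of the same day were 68.1% and 87.5% of the Kcnq1ot1 peaks at day 3, and 63.9% and 84.3% at day 0, against 84.7%, 83.4%, 84.1% and 84.1% of all peaks in the same 4 libraries.

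**Figure D2:**
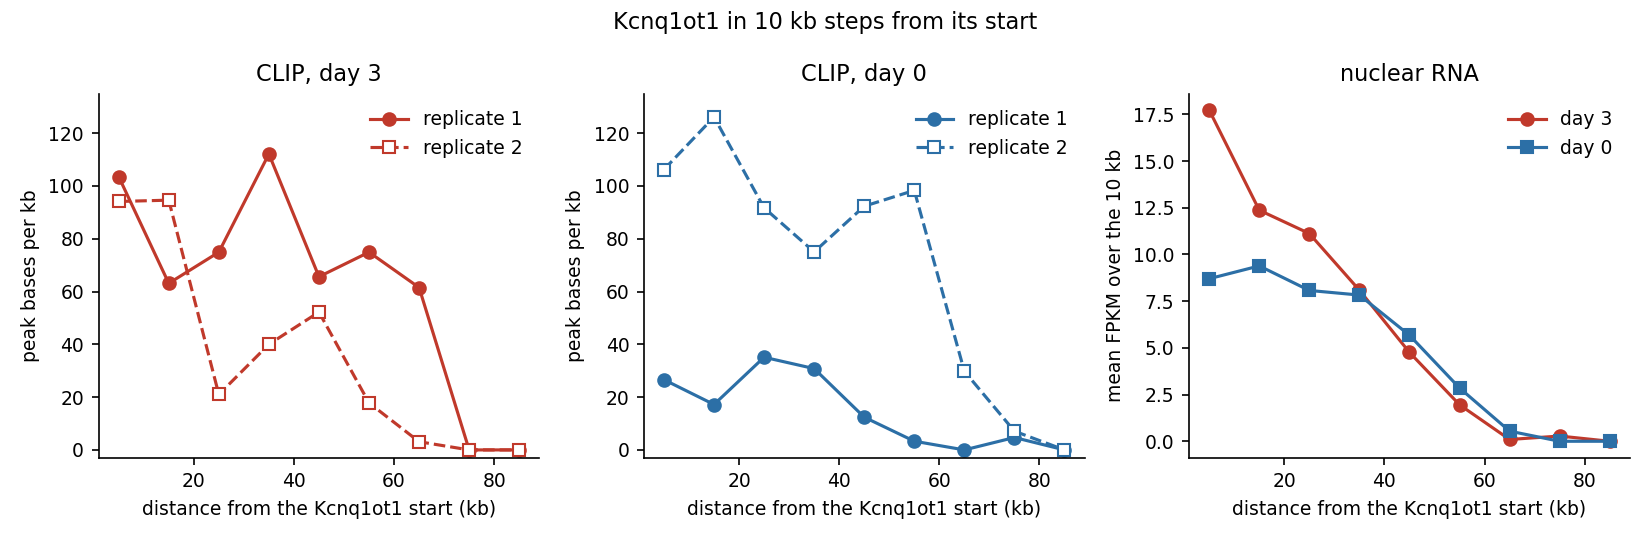
Kcnq1ot1 in steps of 10 kb from its start: CLIP peak bases per kb at day 3 (left) and day 0 (middle), with 1 line per library, and mean nuclear RNA in FPKM (right), day 3 red and day 0 blue. CLIP coverage in day 3 replicate 1 stayed at 61.5 bases per kb from 60 to 70 kb, where the RNA was 0.096 FPKM.

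Nuclear RNA was listed for each gene at both days, in FPKM from the authors, with 1 library per day and so no test. H19 stood at 6.43 FPKM at day 3 and 7.22 FPKM at day 0, and Igf2 at 2.03 FPKM at day 3 and 4.0 FPKM at day 0. The H19 row pools 2 transcripts at day 3 and 1 at day 0, and the Igf2 row 2 at day 3 and 3 at day 0. The Igf2 row was 10538 bp long at day 3 and 16049 bp at day 0, so its values belong to unlike stretches. For any lower value, fewer expressing cells and less RNA per cell cannot be told apart in such bulk samples. Kcnq1ot1 was listed as 24 rows at day 3 and 30 at day 0, none spanning the gene, and the highest, at the start of the RNA, read 50.01 FPKM at day 3 and 17.7 FPKM at day 0. Its log2 ratio of day 3 over day 0, log2(FPKM + 1), was 1.44 by that highest row and 0.63 by the length-weighted mean of 13.3 FPKM at day 3 and 8.27 FPKM at day 0. Rows covered 50.1% of the gene at day 3 and 61.7% at day 0. Over 15929 regions of at least 1 kb, 20.9% were at 1 or more, 20.4% at -1 or less, and the median was 0.14.

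Airn gave no single direction. At day 3 it was listed by a row of 427 bp at 9.54 FPKM at its start and by a later row pooling 2 transcripts, together 12.6% of its length. At day 0 a row of 74184 bp at 3.36 FPKM, pooling 4 transcripts, and a later row covered 75.2%. The highest row gave a log2 ratio of 1.27, the length-weighted mean -0.67 and, in an alternative added after seeing the data, the sum over the whole gene -1.41. CLIP peaks of Airn inside listed rows were 0 of 2 and 1 of 5 at day 3, and 5 of 5 and 12 of 12 at day 0.

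Igf2r was listed at 13.5 FPKM at day 3 and at 72285 FPKM at day 0. The day 0 row is 1 of 1225 rows above 10000 FPKM in that list (579 at day 3) and is not read as an RNA level, so no change is given. It pools 4 transcripts, and the day 3 row 3. Opposite Igf2, a plus-strand row from 149845598 to 149856261 read 15.9 FPKM at day 3 and 1.40 FPKM at day 0, and the files name no gene for it.

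Where Igf2r and Airn run against each other, the strands could be told apart. In the shared 28354 bp the Igf2r strand carried 8 and 13 peaks at day 3, against 7 and 6 at day 0. The Airn strand carried 1 and 3 peaks at day 3, against 5 and 3 at day 0. Peaks of the 2 strands overlapped at 0 positions in 3 libraries and at 1 in day 0 replicate 1. Beyond the start of Igf2r, Airn alone had 1 and 2 peaks at day 3, against 0 and 9 at day 0, while the minus strand had none there in any library.

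**Figure D3:**
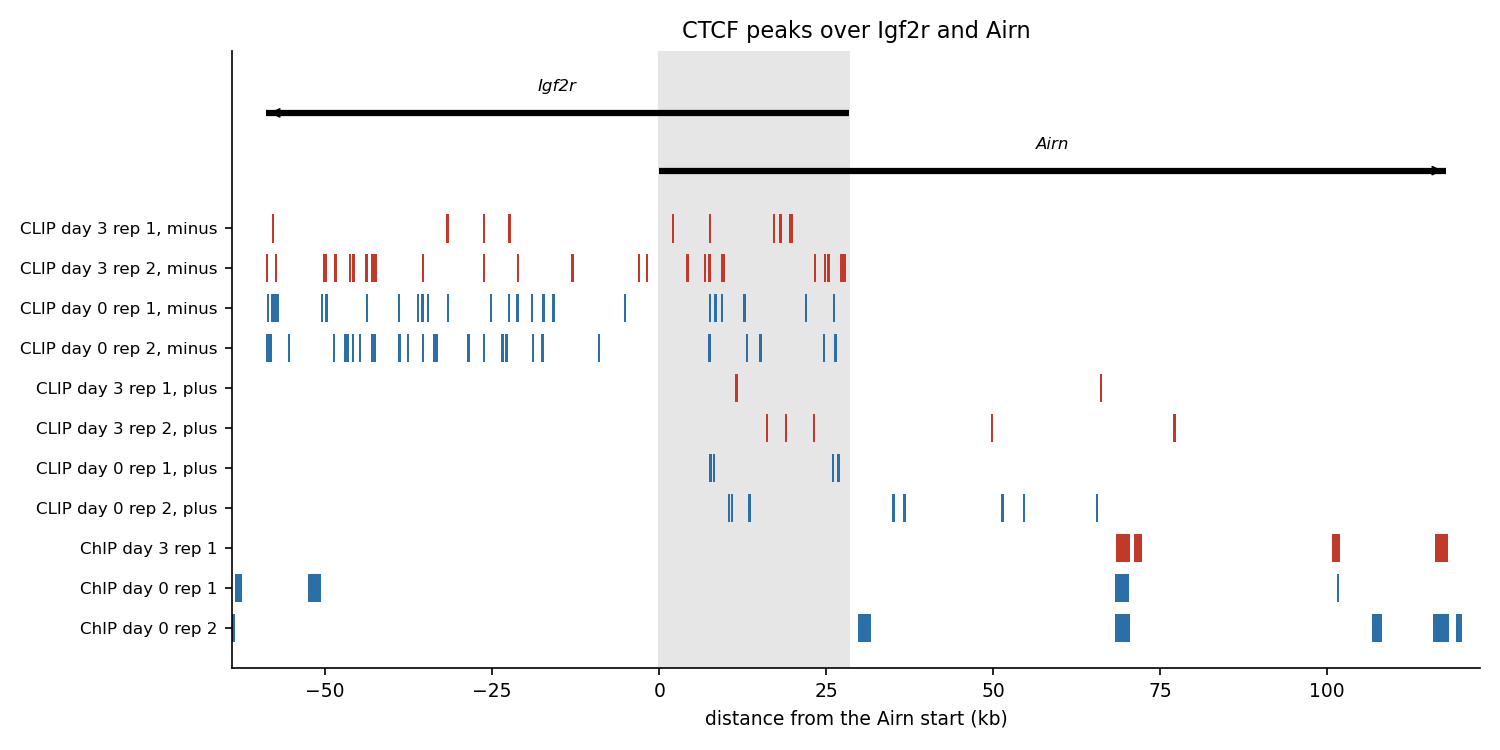
CTCF CLIP peaks on the minus strand (Igf2r) and the plus strand (Airn) and ChIP peaks by distance from the Airn start in kb, with 1 line per library, day 3 red above day 0 blue; narrow peaks are drawn at a minimum width and the shaded part is shared by both genes. Minus-strand CLIP peaks end where Igf2r begins, and the ChIP site 68 to 70 kb into Airn appears in all 3 libraries.

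On DNA, 11 CTCF ChIP sites touched the 5 genes or the 10 kb upstream of them, 2 in all 3 libraries, 3 in 2 and 6 in 1. Across all 93527 merged sites, 29.4% were in all 3. The 2 shared sites were those upstream of H19 and within Airn.

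Upstream of H19, where the insulator is known to lie, each ChIP library had a peak. It spanned 149764230 to 149767683 at day 3 with a score of 28.6, and 149765563 to 149768957 and 149764512 to 149768922 at day 0 with scores of 22.2 and 25.4. All 3 shared 2121 bp, from 1512 to 3632 bp upstream of H19. Its rank was ordinary: 52.5% of peaks scored higher at day 3, and 64.2% and 33.5% at day 0. A further peak from 149769568 to 149770411 was listed in day 0 replicate 2 alone, with a score of 9.17. Of the 10 kb windows upstream of regions of at least 1 kb, 31.2% held a site of all 3 libraries. The peaks were 3454 bp wide at day 3 and 3395 and 4411 bp wide at day 0, and single CTCF sites within them were not resolved. A single CLIP peak, on the plus strand in day 0 replicate 2, lay inside it.

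**Figure D4:**
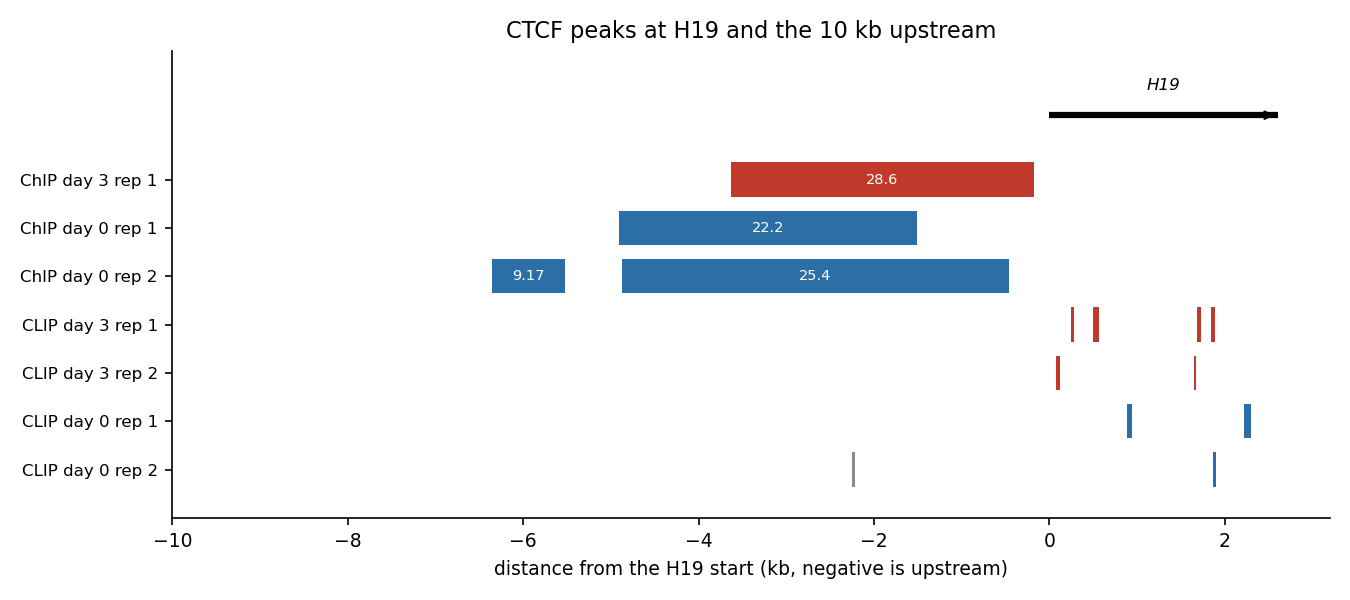
CTCF ChIP peaks with the authors' scores printed on them, and CLIP peaks, at H19 and over 10 kb upstream, by distance from the H19 start in kb; day 3 is red above day 0 in blue, and the grey CLIP peak is on the opposite strand. The ChIP peaks of the 3 libraries share the stretch from 1512 to 3632 bp upstream, and the H19 CLIP peaks lie within the gene.

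The Airn site ran from 13002486 to 13004622 at day 3 with a score of 52.2, and from 13002460 to 13004531 and 13002442 to 13004699 at day 0 with scores of 40.1 and 48.2. These were high in their lists, with 15% of peaks scoring higher at day 3 and 25.6% and 8.43% at day 0. No CLIP peak lay inside it in any library. Of the regions of at least 10 kb, 57.2% held a site of all 3 libraries.

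The other sites were found in 1 or 2 libraries. Airn held 5 of them, 1 of which also lies just upstream of the Igf2r start. Igf2 had none in its body. A site 7.2 to 9.2 kb upstream of 149850000, where the interval used for Igf2 begins, was listed at day 3 and in day 0 replicate 2. The day 0 RNA row of Igf2 ran on to 149852721, which is nearer to that site. Kcnq1ot1 had 1 ChIP peak, in day 0 replicate 1 alone and 73.0 kb downstream of its start, so its dense RNA peaks had no DNA site near the start: the nearest peaks lay 80.2 kb away at day 3 and 73.0 and 79.8 kb away at day 0. Igf2r had 1 in its body in day 0 replicate 1, and 1 CLIP peak of day 0 replicate 1 lay inside that site. The site Igf2r shares with Airn, from 12963924 to 12965868, was listed in day 0 replicate 2 alone.

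Allelic lists named peaks as mus or cas. At the 5 genes no ChIP peak was listed as cas: 5 of 6 were mus at day 3, and 4 of 5 and 6 of 7 at day 0, the rest being in neither list. Maternal and paternal binding cannot be told apart from this, since the surroundings were nearly all mus. In the 10 Mb centred on the H19 start the cas share was 0% at day 3 and 0% and 0.327% at day 0; around Igf2r it was 0.763% at day 3 and 0.787% and 0% at day 0. Chromosome 7 as a whole reached 27.4% at day 3 and 29.8% and 34.6% at day 0. Chromosome 17 as a whole was nearly all mus, at 0.607% cas at day 3 and 0.658% and 0.701% at day 0, whereas chromosome 13 was near even, at 49.4% at day 3 and 48.7% and 47.6% at day 0. Of the CLIP allelic lists only that of day 0 replicate 1 covers a member, Airn, with 2 mus and 0 cas peaks.

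Among 19496 other regions of at least 1 kb, the one most like Kcnq1ot1 over 6 values, the 4 CLIP libraries and the RNA of both days, lay on chromosome 17 from 66686105 to 66799447 on the minus strand. It had 114 and 71 CLIP peaks at day 3, against 48 and 94 at day 0, at a log2 distance of 1.25. The region most like Airn was on chromosome 3, 95428902 to 95436024 on the plus strand, at a distance of 0.39. That region is far shorter than Airn, because the distance takes no account of length. It also uses the highest RNA row, which for Airn at day 3 was the row of 427 bp. For H19 the closest region was on chromosome 11, 115939887 to 115948309 on the minus strand, at 0.66. None is given for Igf2r, whose day 0 RNA value is not read as a level.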

How the data were processed

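CLIP, ChIP and nuclear RNA lists were taken as the authors deposited them, on mm9. Per the submitters' processing notes, the tools named were Cufflinks 2.1.1, bedtools 2.17.0, Novoalign 3.00.03, TopHat2 2.0.8, Trim Galore 0.3.3, SAMtools 0.1.18 and cutadapt 1.0; their roles are not given in the sources used here. RNA rows hold FPKM from the authors, peak lists a peak score from the authors, and the deposited allelic lists other values that were used for position alone. Peak lists hold no read counts, so depth is unknown. The 5 genes and lists were chosen with earlier results of these data known.

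Overlap needed 1 bp. CLIP rows were fitted with limma 3.58.1 in R 4.3.3 on log2(peak bases per Mb + 1), keeping rows that had a peak in 2 or more libraries, and p-values were adjusted over all rows by Benjamini-Hochberg. The fit was tested on simulated data. An RNA row stood for a gene where it overlapped at least 50% of the row or gene, and the highest was used, with a pseudocount of 1. The genes named are the 5 members and, by Euclidean distance, the region most like each of H19, Kcnq1ot1 and Airn. Regions were merged rows of both days, and counts use Python 3.11.15.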

Additional observations from a re-analysis of the deposited data

How the results depend on the processing

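Of 97 alternative values, 84 stayed the same, 7 moved and 6 reversed. For CLIP differences, the same meant keeping direction and side of the threshold. For counts and RNA ratios it meant staying within 1.5 times the main value. The number of regions called between the days was 0 except with a pseudocount of 0.1, which gave 359; the cause was not tested. Leaving out 1 CLIP library gave log2 differences, day 3 minus day 0, of -1.29 to -0.96 for Airn, -0.87 to -0.039 for Igf2r, -0.013 to 1.495 for Kcnq1ot1 and -0.53 to 2.23 for H19. With scores at or above the median H19 reversed to -1.88 and Airn stood at -3.20. The Kcnq1ot1 RNA ratio moved to 0.63 by the length-weighted mean and to 0.33 by the sum over the whole gene, added after seeing the data. The Airn ratio reversed to -0.67 and -1.41 under the same alternatives. ChIP sites at the 5 genes fell to 3 with scores at or above the median, with 1 in every library; of those in every library 0 lay upstream of H19. Leaving out 1 day 0 ChIP library gave 8 to 9 sites, 3 to 4 of them in every library left. Deviations from the day mean of same-numbered CLIP libraries had a correlation of 0.018 over 12329 rows. With 2 libraries per day there were too few to show a pairing, although list scores and widths went with the number. With the replicate block, limma called 0 regions (smallest adjusted p = 0.482).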
